A study of Rattus norvegicus with 24 samples.

Results

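Kinesins are motor proteins that walk along microtubules. The members described here are the 7 heavy chain or motor subunit genes Kif1a, Kif1b, Kif3a, Kif3b, Kif5a, Kif5b and Kif5c, which carry cargo along axons. All probe sets whose single gene symbol in the platform annotation is one of these names were taken, which gave 7 of the 14218 genes named there and 16 of the 31099 probe sets on the array. Kif1a, Kif5a and Kif5c have 3 probe sets each, Kif3a, Kif3b and Kif5b have 2 each, and Kif1b has 1. The 7 genes were chosen by name with earlier results of these arrays known, among them the reading of a Kif1a probe set at 5 mg/kg against vehicle. Which other values were weighed in that choice is not stated. The members' values at 5 mg/kg against vehicle are therefore given without p-values, and nothing is read from the counts of calls there. The other comparisons, that of 20 mg/kg with the same vehicle arrays included, may have been in view too, so their adjusted p-values are not independent evidence.

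In neurons the axon is long and makes little protein of its own, so vesicles, mitochondria and cytoskeletal proteins are hauled outward from the cell body by plus-end-directed kinesins and returned by dynein. The Kif5 genes encode the heavy chains of conventional kinesin, Kif1a and Kif1b encode motors known for carrying synaptic vesicle precursors and mitochondria, and Kif3a and Kif3b pair in a motor that also serves cilia. Kif5b is expressed in many tissues, while Kif5a and Kif5c are enriched in neurons.

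The tissue was a piece of forebrain of about 30 mg from each of 24 male F344 rats aged 11 to 12 weeks, with 1 array for each animal. The 6 groups of 4 rats received vehicle or D-serine at 5, 20, 50, 200 or 500 mg/kg in a single dose and were killed 96 h later. D-serine is a co-agonist of the NMDA receptor, and in the rat high doses are known for injury to the kidney. All comparisons with vehicle share the same 4 vehicle arrays. In whole tissue, fewer cells of a type and less RNA per cell cannot be told apart.

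Before normalization the arrays' median intensities ran from 56 to 103.8. The array of 500 mg/kg replicate 4 stood apart: its median correlation with the other arrays was 0.855, against 0.957 to 0.971 for the rest. On it the summed level of the 8 measured forebrain neuron markers was 1370, against 6487 to 10975 on the other 23 arrays, and that of the 5 measured cerebellar granule cell markers was 7642, against 277 to 700. That array therefore goes against its tissue label, and results that rest on it are given with and without it. Other arrays differed in choroid plexus content. The summed level of the 3 measured markers of that tissue ran from 266 to 9010 in vehicle. It ran from 268 to 324 at 5 mg/kg and from 243 to 284 at 20 mg/kg. At 50 and 200 mg/kg it reached 8682 and 7631, and at 500 mg/kg it was 6734 on replicate 4 and 249 to 319 on the others. The Gapdh ratio, taken as log2 of the 3' over the 5' control probe set of that transcript, is a usual readout of how far labelled RNA reaches toward the 5' end. By group mean it was highest in vehicle and lowest at 5 and 20 mg/kg. It averaged 0.83 (range 0.76 to 0.89) in vehicle and, in order of dose, 0.19 (0.098 to 0.26), 0.18 (0.15 to 0.23), 0.34 (0.18 to 0.57), 0.60 (0.41 to 0.80) and 0.75 (0.65 to 0.97). The vehicle arrays did not overlap those of 5, 20 or 50 mg/kg in this ratio.

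Levels are quantile normalized log2(intensity + 16), on which a difference of 1 is a doubling for bright probe sets and more than that for dim ones. Of the 16 kinesin probe sets, 13 lay among the 18625 kept by a filter that dropped the 40% with the lowest mean, a limit of 5.98. Kif1a 1397505_at (mean 5.47), Kif1b 1389863_at (5.15) and Kif3b 1379963_at (5.04) fell below it, so Kif1b has no tested probe set of its own here. The dimmest tested member was Kif5c 1395997_at, with a mean of 6.07. A further 4 probe sets carry Kif1b together with other symbols and name no gene. All 4 passed the filter, and they were left out for their shared symbols, not for low signal. Differences are given with the standard error (SE) of a limma fit of the 6 group means (4 arrays a group), and adjusted p-values are Benjamini-Hochberg values over all 18625 probe sets.

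Among the conventional kinesin heavy chains, the Kif5c probe sets moved in opposite directions. Kif5c 1396154_at read 6.61, 6.41, 6.26 and 6.06 in vehicle, 7.12, 7.56, 7.60 and 7.45 at 5 mg/kg, and 7.70, 7.55, 7.58 and 7.28 at 20 mg/kg. The 50 mg/kg arrays read 7.37, 7.32, 6.92 and 7.41, the 200 mg/kg arrays 6.53, 6.56, 6.86 and 6.99, and the 500 mg/kg arrays 6.60, 6.61, 6.91 and 6.15. The vehicle arrays lay below all arrays of 5, 20 and 50 mg/kg and overlapped those of 200 and 500 mg/kg. By group mean the order was 20, 5, 50, 200, 500 mg/kg and vehicle, and each group's range overlapped that of its neighbour in this order.

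Against vehicle this Kif5c probe set was higher by 1.10 ± 0.16 (SE) at 5 mg/kg. It rose by 1.19 ± 0.16 at 20 mg/kg (limma, adjusted p = 8.86e-05) and by 0.92 ± 0.16 at 50 mg/kg (adjusted p = 0.00972). The call at 50 mg/kg was lost without 50 mg/kg replicate 4, where the difference was 0.87 (adjusted p = 0.0558). The differences at 200 mg/kg (0.40, adjusted p = 0.893) and at 500 mg/kg (0.23, adjusted p = 0.774) did not pass. Between 20 and 200 mg/kg the probe set was higher at 20 mg/kg by 0.80 ± 0.16 (limma, adjusted p = 0.0121). The 2 means compared there hold no vehicle or 5 mg/kg array. Those arrays still enter the normalization and the spread shared by all 6 groups, and with it the SE and adjusted p. The call between 20 and 200 mg/kg was lost on leaving out 20 mg/kg replicate 3 (0.78, adjusted p = 0.0502), 200 mg/kg replicate 1 (0.73, adjusted p = 0.0724) or 200 mg/kg replicate 2 (0.74, adjusted p = 0.0674). Between 5 and 500 mg/kg the difference was 0.86 ± 0.16 (adjusted p = 0.00356), and 0.72 (adjusted p = 0.0154) without 500 mg/kg replicate 4.

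Kif5c 1380172_at fell where the other probe set rose. It read 10.74, 10.57, 10.32 and 10.66 in vehicle, 10.03, 10.03, 9.93 and 9.72 at 5 mg/kg, and 10.04, 9.88, 9.84 and 9.84 at 20 mg/kg. The 50 mg/kg arrays read 10.30, 10.29, 10.25 and 10.19, the 200 mg/kg arrays 10.55, 10.41, 9.99 and 10.10, and the 500 mg/kg arrays 10.19, 10.15, 10.04 and 10.25. All vehicle arrays lay above those of 5, 20, 50 and 500 mg/kg, narrowly so at 50 mg/kg, and overlapped those of 200 mg/kg. The probe set was lower than vehicle by 0.65 ± 0.11 at 5 mg/kg and fell by 0.67 ± 0.11 at 20 mg/kg (limma, adjusted p = 0.000432). On the values as deposited, where the median of all probe sets was itself 0.37 higher at 20 mg/kg than in vehicle, the difference was -0.21 (adjusted p = 0.321). The 3 higher doses gave -0.31, -0.31 and -0.41, with adjusted p-values of 0.169, 0.833 and 0.427. Between 20 and 200 mg/kg the difference was -0.36 ± 0.11 (adjusted p = 0.097), and -0.45 (adjusted p = 0.0301) without 200 mg/kg replicate 3.

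The remaining Kif5c probe set, 1395997_at, ran from 5.57 to 6.74 over the 24 arrays and passed in no comparison. Its differences from vehicle were -0.33, -0.27, -0.01, -0.08 and -0.16 in order of dose, each with an SE of 0.19. Over the 24 arrays it correlated with 1380172_at (Pearson r = 0.65, and 0.73 without 500 mg/kg replicate 4), while 1396154_at had r = -0.71 with 1380172_at (-0.74 without that array). These arrays share the dose groups and the Gapdh ratio. Of the 3459 pairs of probe sets of 1 gene on the array, 0.116% had a lower r than -0.71, and the median pair had 0.29.

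**Figure D1:**
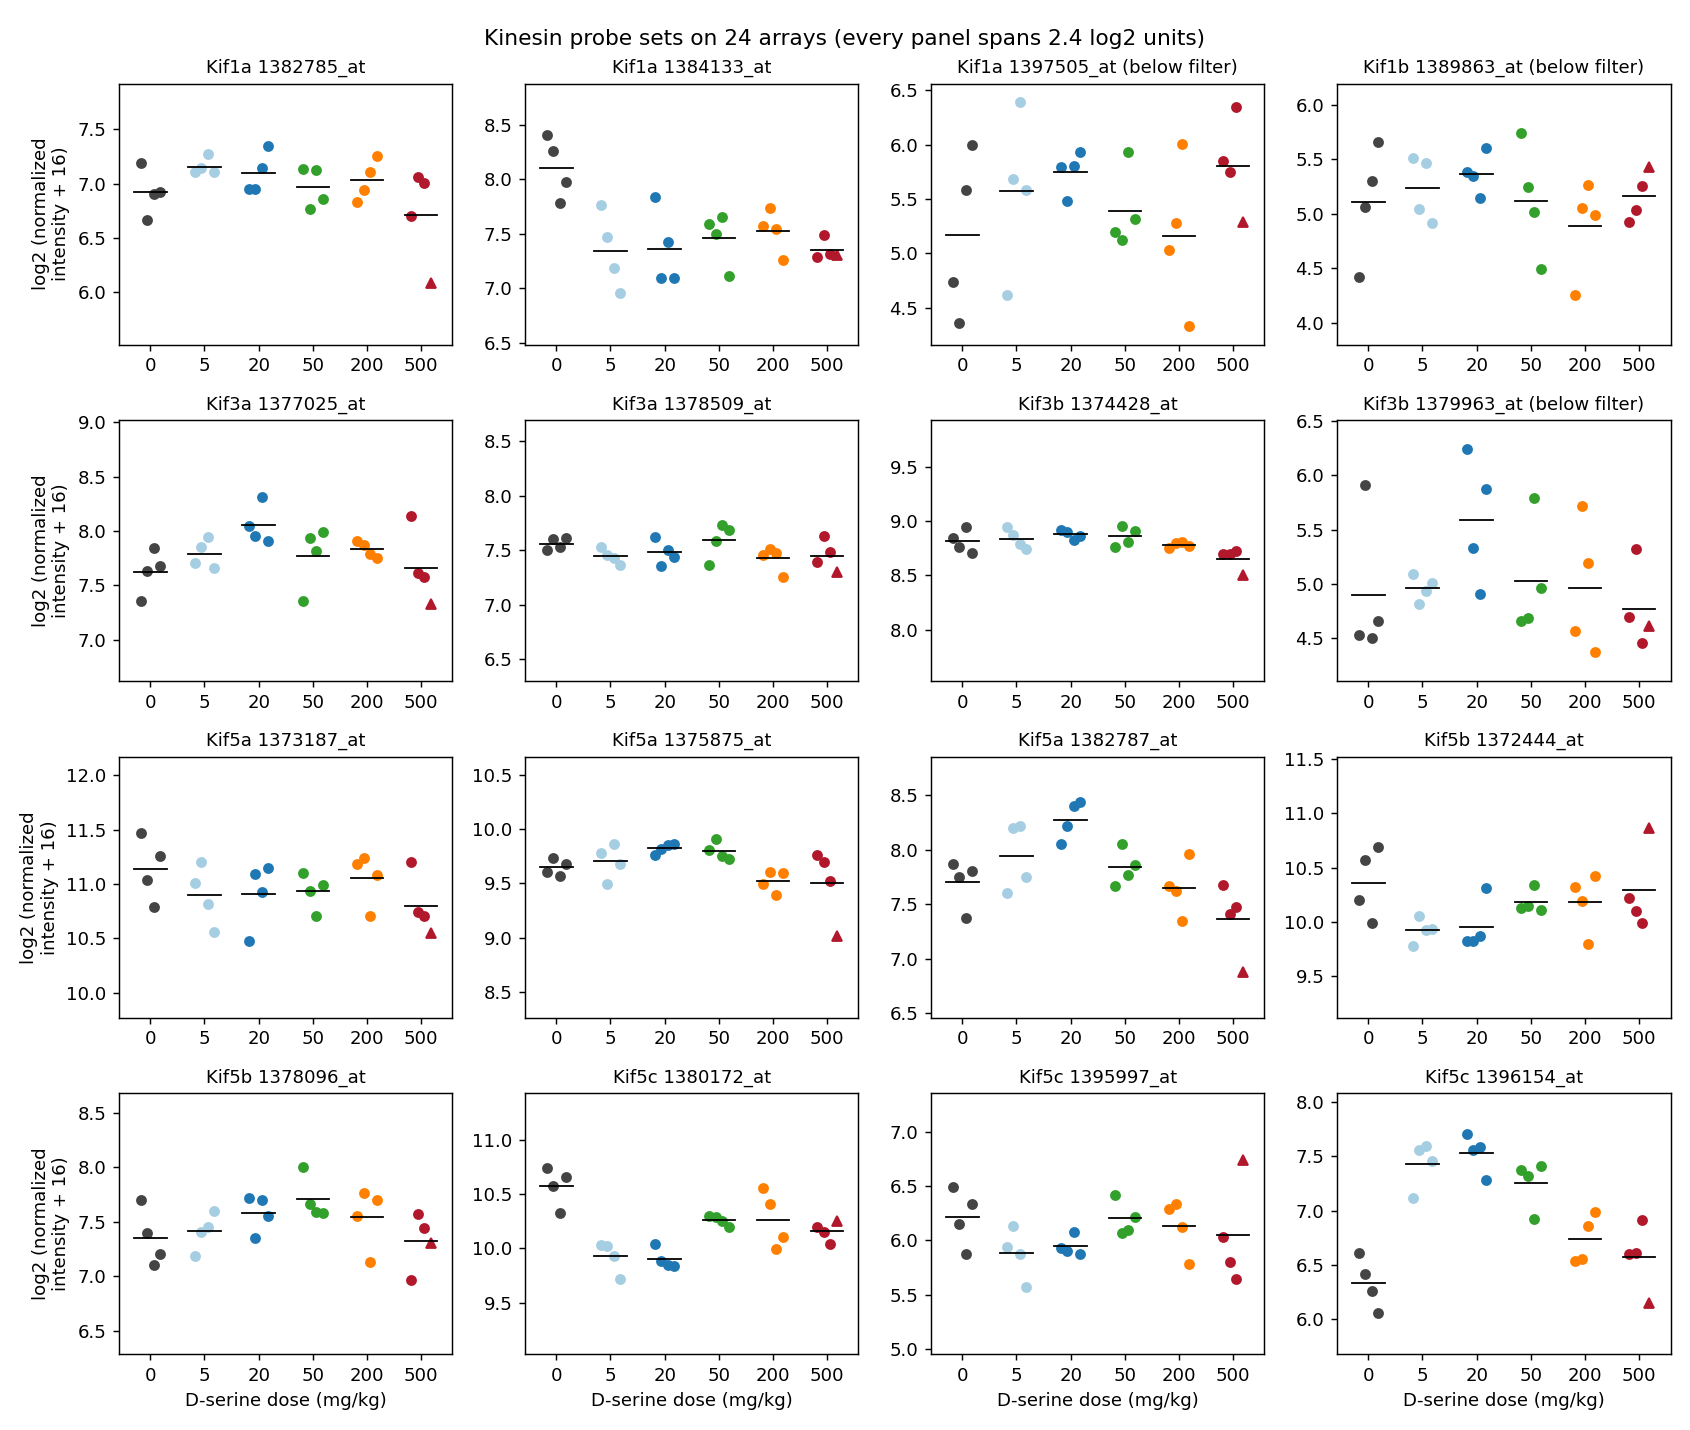
Quantile normalized log2(intensity + 16) of the 16 kinesin probe sets (vertical axes, each 2.4 log2 units high but centred on its own values) against dose of D-serine (horizontal axes, 0 is vehicle); points are arrays, the triangle is 500 mg/kg replicate 4, and black bars are means of 4 arrays. Kif5c 1396154_at lies above vehicle at 5, 20 and 50 mg/kg, whereas Kif5c 1380172_at and Kif1a 1384133_at have their highest mean in vehicle.

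Kif5a, whose human counterpart is mutated in a hereditary spastic paraplegia, also had probe sets that differed. Kif5a 1382787_at read 7.87, 7.75, 7.37 and 7.81 in vehicle, 7.60, 8.20, 8.22 and 7.75 at 5 mg/kg, and 8.05, 8.22, 8.40 and 8.43 at 20 mg/kg. The 50 mg/kg arrays read 7.66, 8.06, 7.77 and 7.86, the 200 mg/kg arrays 7.67, 7.62, 7.34 and 7.96, and the 500 mg/kg arrays 7.68, 7.41, 7.47 and 6.88. The 20 mg/kg arrays lay above all vehicle and 200 mg/kg arrays, and every other dose overlapped vehicle. The rise at 20 mg/kg was 0.58 ± 0.17 (limma, adjusted p = 0.0367). It did not pass without vehicle replicate 2, 3 or 4 or without 20 mg/kg replicate 2, 3 or 4, with values from 0.47 to 0.61 and adjusted p-values from 0.0541 to 0.119.

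The difference of this Kif5a probe set between 20 and 200 mg/kg was 0.63 ± 0.17 (adjusted p = 0.0687). The array of 500 mg/kg replicate 4 is in neither group compared there, but it enters the normalization, the filter and the shared spread. Leaving it out kept the difference at 0.63 and gave a limma adjusted p of 0.0197. Leaving out 200 mg/kg replicate 4 gave 0.73 (adjusted p = 0.0352). At 5 against 500 mg/kg it was 0.58 ± 0.17 (adjusted p = 0.055), and 0.42 (adjusted p = 0.206) without 500 mg/kg replicate 4.

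Kif5a 1373187_at ran from 10.47 to 11.47 and differed from vehicle by -0.24, -0.23, -0.21, -0.09 and -0.34 in order of dose, with an SE of 0.17. Kif5a 1375875_at ran from 9.02 to 9.91 and differed by 0.06, 0.18, 0.15, -0.12 and -0.15, with an SE of 0.11; its lowest value was that of 500 mg/kg replicate 4, without which the difference at 500 mg/kg was 0.01. Neither passed in any comparison with all 24 arrays; without 500 mg/kg replicate 4 the latter was called between 20 and 200 mg/kg (0.30, adjusted p = 0.0325).

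Kif5b, the widely expressed heavy chain, passed in no comparison at either probe set. Kif5b 1372444_at ran from 9.99 to 10.69 in vehicle, from 9.78 to 10.05 at 5 mg/kg and from 9.83 to 10.31 at 20 mg/kg. Its differences from vehicle were -0.44, -0.40, -0.18, -0.18 and -0.07 (SE 0.17), with an adjusted p of 0.163 at 20 mg/kg. Kif5b 1378096_at ran from 6.96 to 8.0 over all arrays and differed by 0.06, 0.23, 0.36, 0.19 and -0.03 (SE 0.16). At both probe sets the vehicle range overlapped that of every dose.

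Kif1a, the motor best known for synaptic vesicle precursors, had 1 probe set that was highest in vehicle and lower at every dose. Kif1a 1384133_at read 8.40, 8.26, 7.78 and 7.98 in vehicle, 7.76, 7.47, 7.18 and 6.96 at 5 mg/kg, and 7.84, 7.10, 7.42 and 7.09 at 20 mg/kg. The 50 mg/kg arrays read 7.59, 7.50, 7.65 and 7.12, the 200 mg/kg arrays 7.57, 7.74, 7.54 and 7.26, and the 500 mg/kg arrays 7.29, 7.49, 7.32 and 7.31. The vehicle arrays lay above all arrays of 5, 50, 200 and 500 mg/kg, and 1 array of 20 mg/kg reached into the vehicle range. The means of the 5 dose groups lay between 7.34 and 7.53.

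This Kif1a probe set was lower than vehicle by 0.76 ± 0.18 at 5 mg/kg and fell by 0.74 ± 0.18 at 20 mg/kg (limma, adjusted p = 0.0114). On the values as deposited the latter was -0.34 (adjusted p = 0.218). Without vehicle replicate 1 it was -0.64 (adjusted p = 0.0503), and without 20 mg/kg replicate 2 it was -0.65 (adjusted p = 0.0502). The differences at 50, 200 and 500 mg/kg were of similar size (-0.64, -0.58 and -0.76) and did not pass (adjusted p = 0.0888, 0.755 and 0.282). At 500 mg/kg the value without replicate 4 was -0.74 (adjusted p = 0.427). Comparisons between doses did not pass: 20 against 200 mg/kg gave -0.16 ± 0.18 and 5 against 500 mg/kg gave -0.01 ± 0.18. The difference from vehicle was -0.76 at 500 mg/kg, where it did not pass and the Gapdh ratio averaged 0.75. It was -0.76 at 5 mg/kg too, where the ratio averaged 0.19. A fit with the ratio as a covariate, given further below, includes this probe set. The cause of these values was not tested.

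Kif1a 1382785_at ran from 6.67 to 7.19 in vehicle and from 7.10 to 7.27 at 5 mg/kg. It differed from vehicle by 0.23, 0.17, 0.05, 0.11 and -0.21 in order of dose (SE 0.17) and passed in no comparison. The value at 500 mg/kg rests on replicate 4, whose level of 6.09 was the lowest of the 24; without that array the difference was -0.00086. Kif1a 1397505_at, below the filter, ran from 4.33 to 6.39, and Kif1b 1389863_at ran from 4.25 to 5.74. The pooled SD within groups was 0.57 and 0.39, above the SD of the group means of 0.28 and 0.16, and neither was tested.

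Kif3a and Kif3b, which form the heterotrimeric kinesin with the adaptor Kifap3, passed in no comparison with all 24 arrays. Kif3a 1377025_at ran from 7.35 to 7.85 in vehicle and from 7.90 to 8.31 at 20 mg/kg, without overlap. Its difference at 20 mg/kg was 0.43 ± 0.15 (adjusted p = 0.0872), and 0.43 (adjusted p = 0.0467) without 500 mg/kg replicate 4 or (adjusted p = 0.0453) without 500 mg/kg replicate 1. At the other doses it differed by 0.17, 0.15, 0.20 and 0.04. Kif3a 1378509_at ran from 7.26 to 7.73 over all arrays, with differences of -0.12, -0.08, 0.03, -0.14 and -0.11 (SE 0.09). Kif3b 1374428_at ran from 8.50 to 8.95, with differences of 0.03, 0.06, 0.05, -0.03 and -0.16 (SE 0.07); at 500 mg/kg the 4 arrays read 8.70, 8.70, 8.72 and 8.50, and the difference without replicate 4 was -0.11. Kif3b 1379963_at, below the filter, ran from 4.37 to 6.24.

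**Figure D2:**
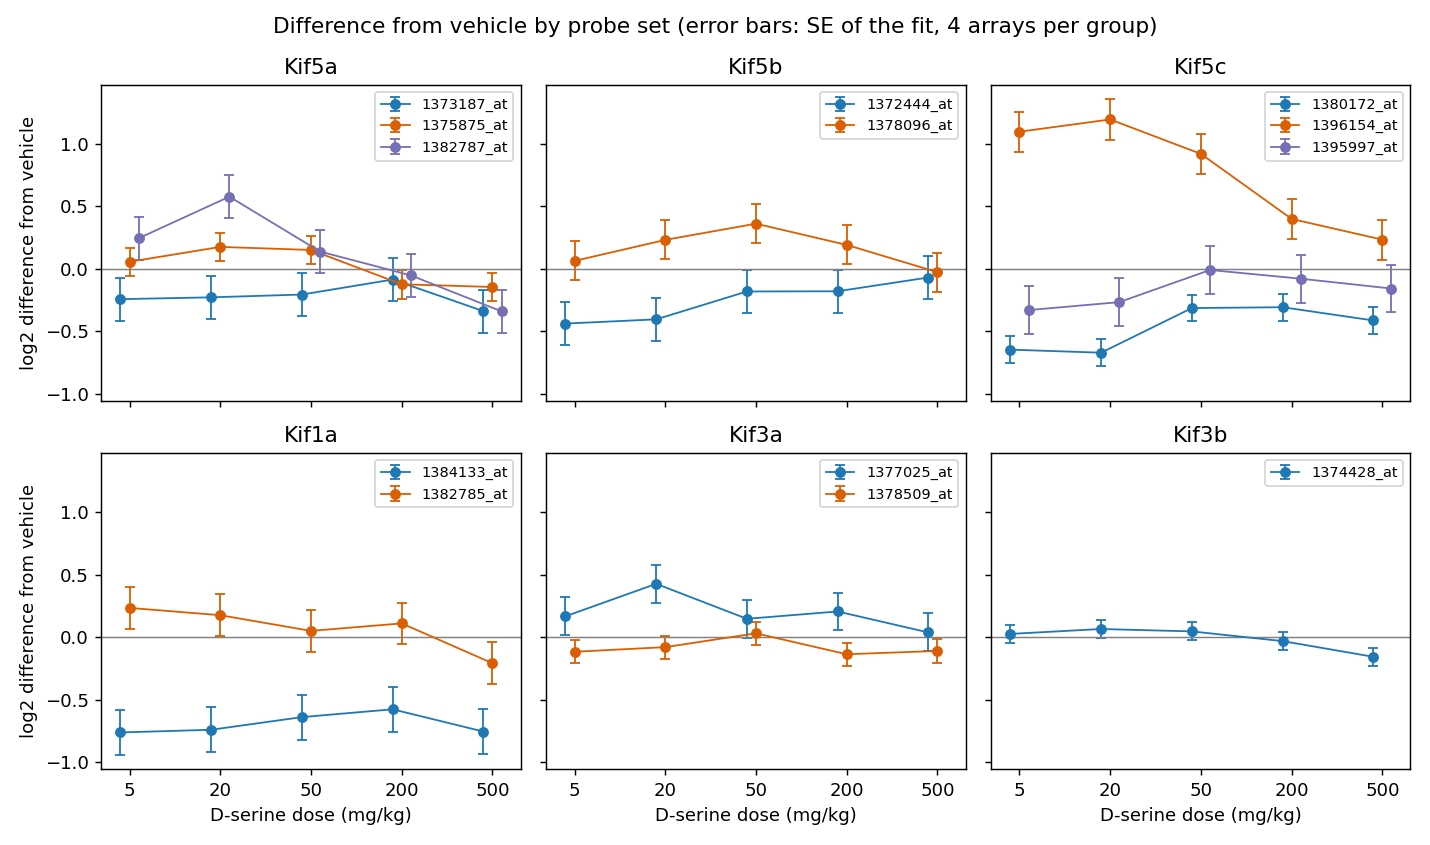
Log2 difference from vehicle (vertical axis) at each dose of D-serine (horizontal axis) for the 13 tested kinesin probe sets, with 1 panel a gene and 1 colour a probe set; bars are the SE of the limma fit. Kif5c has a probe set above 0 and another below 0 at the same doses, and Kif1a 1384133_at stays between -0.58 and -0.76 at all 5 doses.

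Counted over the 13 tested probe sets, the kinesins were called at 5 mg/kg in 3 cases, 1 higher and 2 lower. In that comparison 5.52% of all tested probe sets were called, 3.79% higher and 1.73% lower; since it may have been used in choosing the members, nothing is read from this count. At 20 mg/kg 4 of 13 were called, with Kif5c 1396154_at and Kif5a 1382787_at higher and Kif5c 1380172_at and Kif1a 1384133_at lower. The background there was 8.48%, with 5.25% higher and 3.23% lower. At 50 mg/kg 1 of 13 was called, Kif5c 1396154_at, against 0.864% of all. At 200 mg/kg limma called 0 of 13 and 0 of all (0%), with 3 members and 987 of all probe sets under an unadjusted p of 0.05. At 500 mg/kg it called 0 of 13 and 0.00537% of all, with 3 members and 1285 of all under an unadjusted p of 0.05. Between 20 and 200 mg/kg 1 of 13 was called against 1.46% of all, and between 5 and 500 mg/kg 1 of 13 against 3.97%. The F test over the 6 groups, which includes that comparison, called 4 of 13 against 5.93%.

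In order of dose, 3, 5, 3, 1 and 2 members did not overlap vehicle, where 13.6%, 15.9%, 8.05%, 3.51% and 2.73% of all tested probe sets did not. The median difference of the 13 members at 20 mg/kg was 0.064 and that of all probe sets -0.0037, with 7 members above vehicle and 6 below. The median size of the difference there was 0.27 for the members and 0.15 for all.

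Disagreement between probe sets of a gene was measured on each array as the log2 value of a further probe set minus that of the gene's brightest, and the change of this difference between groups was tested over all 3459 such pairs (limma, Benjamini-Hochberg over the pairs). The size of the difference itself depends on the probes and is not interpreted. There are 7 kinesin pairs. At 5 mg/kg 3 of 7 were called against a background of 19.8%, from which nothing is read. At 20 mg/kg 5 of 7 were called against 24.1%, and at 50 mg/kg 1 of 7 against 8.44%. At 200 and at 500 mg/kg 0 of 7 were called, with 0.0289% of all pairs called in each; 3 and 2 member pairs and 350 and 296 of all pairs had an unadjusted p under 0.05. Between 20 and 200 mg/kg 2 of 7 were called against 9.25%, between 5 and 500 mg/kg 2 of 7 against 14.3%, and in the F test 3 of 7 against 19.7%.

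For Kif5c, the difference of 1396154_at from 1380172_at was -4.12, -4.16, -4.07 and -4.60 in vehicle and -2.34, -2.33, -2.26 and -2.55 at 20 mg/kg. It was -4.02, -3.85, -3.13 and -3.11 at 200 mg/kg, where replicates 1 and 2 lay close to vehicle and replicates 3 and 4 lay between vehicle and 20 mg/kg. The Gapdh ratio on those 4 arrays was 0.80, 0.77, 0.42 and 0.41 in the same order. At 50 mg/kg the difference was -2.93, -2.97, -3.33 and -2.78 on arrays whose ratio was 0.57, 0.34, 0.27 and 0.18. The slope of the difference on the ratio within groups was not itself tested. A fit of the pairs with the ratio as a covariate is given further below. The change from vehicle was 1.74 ± 0.21 at 5 mg/kg, 1.87 ± 0.21 at 20 mg/kg (limma, adjusted p = 9.03e-06) and 1.23 ± 0.21 at 50 mg/kg (adjusted p = 0.00278). It was 0.71 at 200 mg/kg (adjusted p = 0.313) and 0.65 at 500 mg/kg (adjusted p = 0.499; 0.81, adjusted p = 0.161, without replicate 4). Between 20 and 200 mg/kg it was 1.16 ± 0.21 (adjusted p = 0.00207), and the call held with each single array left out.

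The Kif5a pair of 1382787_at and 1373187_at was higher by 0.49 ± 0.16 at 5 mg/kg and it changed by 0.80 ± 0.16 at 20 mg/kg (adjusted p = 0.000893). Between 20 and 200 mg/kg it changed by 0.77 ± 0.16 (adjusted p = 0.00503), and that call also held with each single array left out. Between 5 and 500 mg/kg it changed by 0.49 ± 0.16 (adjusted p = 0.0447), a call that 10 of the 24 single-array omissions ended, among them that of 500 mg/kg replicate 4 (0.41, adjusted p = 0.14). At 200 mg/kg it was 0.03 from vehicle.

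The Kif1a pair of 1382785_at and 1384133_at was higher by 1.0 ± 0.24 at 5 mg/kg and it changed by 0.92 ± 0.24 at 20 mg/kg (adjusted p = 0.00657). At 50 mg/kg it was 0.69 (adjusted p = 0.0718), and 0.69 (adjusted p = 0.0452) without 500 mg/kg replicate 4. The Kif3a pair of 1378509_at and 1377025_at was the one that turned the other way, by -0.51 ± 0.15 at 20 mg/kg (adjusted p = 0.0142), and was lost without 20 mg/kg replicate 3 (-0.43, adjusted p = 0.0599) or vehicle replicate 1 (-0.44, adjusted p = 0.0552). The Kif5b pair of 1378096_at and 1372444_at changed by 0.64 ± 0.21 at 20 mg/kg (adjusted p = 0.0322), with 4 omissions (vehicle replicate 2 or 4, 20 mg/kg replicate 1 or 3) giving 0.48 to 0.58 and adjusted p-values of 0.0805 to 0.122.

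The further Kif5a pair (1375875_at, 0.40, adjusted p = 0.0993) and the further Kif5c pair (1395997_at, 0.40, adjusted p = 0.0536) did not pass at 20 mg/kg; the latter was called without 500 mg/kg replicate 4 (0.40, adjusted p = 0.0109). At 20 mg/kg 6 of the 7 kinesin pairs changed in the positive direction, that is, the dimmer probe set gained on the brightest, and 66.9% of all pairs did so. The median change was 0.64 for the 7 pairs and 0.15 for all pairs.

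**Figure D3:**
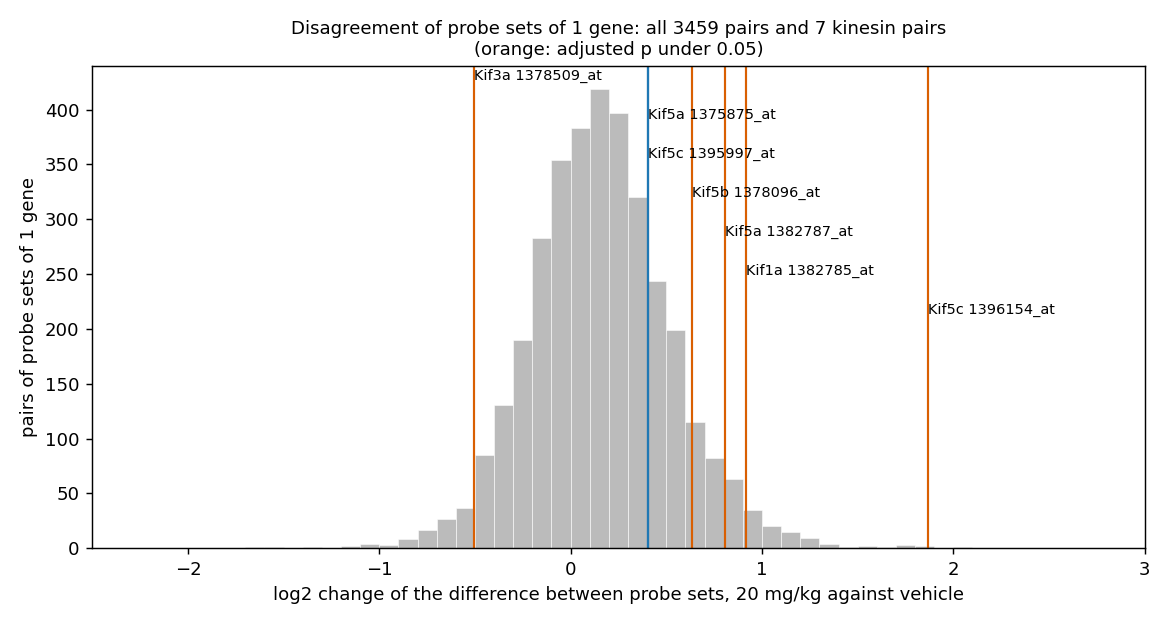
Number of pairs of probe sets of 1 gene (vertical axis) by the log2 change of their difference between 20 mg/kg and vehicle (horizontal axis, bins of 0.1), for all 3459 pairs in grey; vertical lines are the 7 kinesin pairs, named by the dimmer probe set, in orange where the adjusted p was under 0.05 and in blue otherwise. The Kif5c pair at 1.87 lies in the far right tail, and 6 of the 7 lines lie to the right of the median of all pairs at 0.15.

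The Gapdh ratio was then added to the fit as a covariate. Limma called 0 of 13 kinesin probe sets and 0 of 7 pairs in each comparison, with or without 500 mg/kg replicate 4. The same fits called 0 of all 18625 probe sets and 0 of all 3459 pairs at 5, 20 and 50 mg/kg, between doses and in the F test, and at most 1 of each at 200 or 500 mg/kg, so the loss of calls is one of the whole array and is not particular to the kinesins. At an unadjusted p under 0.05 the fit of all 24 arrays left 0 kinesin probe sets at 20 mg/kg, where 6.43% of all remained, and 2 of 7 pairs, where 6.16% of all remained. Over the comparisons it left 0 to 4 of 13 probe sets, where 3.81% to 9.62% of all remained. Of the 7 pairs it left 0 to 2, where 5.38% to 9.11% of all remained. The 4 probe sets were at 500 mg/kg, where 9.62% of all remained. Without 500 mg/kg replicate 4 there were 2, where 4.89% of all remained. With the ratio in the fit of all 24 arrays the rise of Kif5c 1396154_at at 20 mg/kg was 0.55 (adjusted p = 0.775), the fall of Kif5c 1380172_at was -0.20 (adjusted p = 0.822) and the change of their difference was 0.76 (adjusted p = 0.683). Kif1a 1384133_at was at -0.44 at 20 mg/kg (adjusted p = 0.816) and -0.72 at 500 mg/kg (adjusted p = 0.32). The ratio of the vehicle arrays does not overlap that of 5, 20 or 50 mg/kg. Nor do the ratios of 20 mg/kg (0.15 to 0.23) and 200 mg/kg (0.41 to 0.80) overlap. The same holds for 5 mg/kg (0.098 to 0.26) and 500 mg/kg (0.65 to 0.97). Dose and ratio cannot be told apart in any of these comparisons, those between doses included. The deposited values place no probe set along its transcript, so its distance from the 3' end was not used here.

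**Figure D4:**
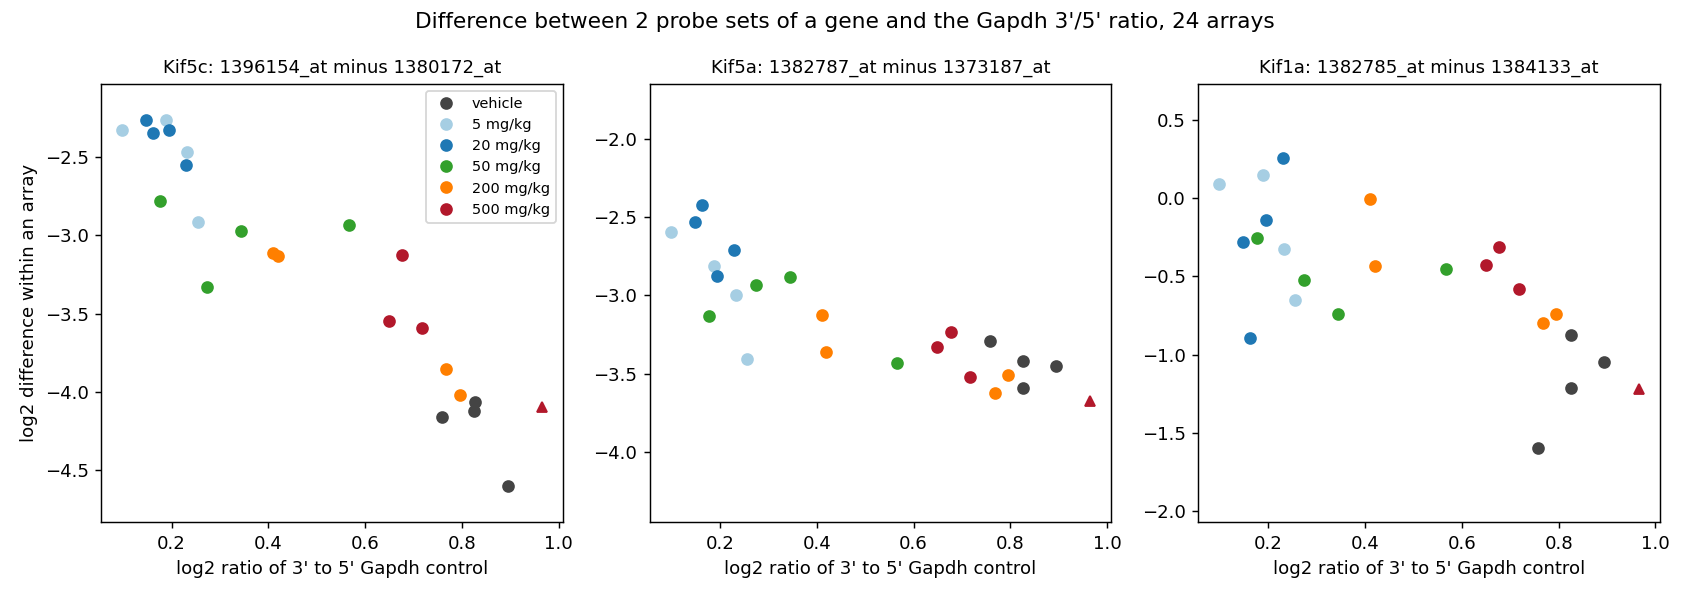
Within-array log2 difference of 2 probe sets of Kif5c, Kif5a and Kif1a (vertical axes, each 2.8 log2 units high) against log2 of the 3' over the 5' Gapdh control (horizontal axes), 1 point an array, coloured by dose, with 500 mg/kg replicate 4 as a triangle. For Kif5c the arrays of 5 and 20 mg/kg sit at the top left, and vehicle, the upper 200 mg/kg arrays in ratio and 500 mg/kg replicate 4 sit at the lower right.

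The 9 measured genes of myelinating oligodendrocytes, which wrap axons, all had a mean below vehicle at 20 mg/kg, with a median of -0.61. Their median was -0.55 at 5 mg/kg and -0.084, -0.079 and -0.12 at the 3 higher doses. At 20 mg/kg limma called 0 of them, with 4 under an unadjusted p of 0.05, and the summed level of the list ran from 12253 to 18469, against 17275 to 27685 in vehicle. Of the 10 neuron markers, 9 lay below vehicle at 5 mg/kg (median -0.21, limma called 0, with 3 under an unadjusted p of 0.05). At 20 mg/kg 7 lay below (median -0.066) and 1 was called lower. Their summed level ran from 18421 to 22976 on 23 arrays and was 26292 on 500 mg/kg replicate 4. Over all 15 kept probe sets of these genes limma called 1 higher at 5 mg/kg, and 1 higher and 1 lower at 20 mg/kg. Of all probe sets 3.79% were called higher at 5 mg/kg, and 5.25% higher and 3.23% lower at 20 mg/kg. Of the 8 measured forebrain neuron genes 4 lay above vehicle at 5 mg/kg (median 0.046) and 3 at 20 mg/kg (median -0.12). Limma called 1 of them higher at each of these doses, against 1.83% and 2.65% of all genes. No marker was at 0 on any list, and the part of these cell types in the kinesin values was not tested.

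The probe sets of other genes whose log2 values followed a member most closely over the 24 arrays were, for Kif5c 1396154_at, Gnb1 (r = 0.947), Mbnl2 (0.943) and Sirpa (0.932). For Kif5c 1380172_at they were Ankrd17 (0.868), Dnajb14 (0.860) and Setd5 (0.852), and for Kif1a 1384133_at Dnajb14 (0.879), Cbl (0.824) and Setd5 (0.808). Dnajb14 and Setd5 thus stood near the top for both of the kinesin probe sets that fell, which themselves correlated with each other at r = 0.77. Kif5b 1372444_at was closest to Acbd5 (0.924), Kif5a 1382787_at to Vapb (0.852), Kif5a 1373187_at to Kcns1 (0.876) and Kif3a 1377025_at to Mob4 (0.821). Kif1a 1382785_at was closest to Dapk1 (0.875), which dropped to 0.714 without 500 mg/kg replicate 4. These are descriptions over arrays that share the dose groups and the Gapdh ratio.

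Other genes of microtubule transport were read at 1 probe set a gene, the brightest. At 5 mg/kg 1.83% of the 10205 genes were called higher and 1.41% lower, and at 20 mg/kg 2.65% higher and 2.52% lower. Of the other kinesins, 9 of 32 were measured and 0 were called at 5 or 20 mg/kg or in the F test by limma (1, 2 and 2 under an unadjusted p of 0.05), with medians of -0.046 and -0.071 (all genes -0.0055 and -0.0074). Of kinesin light chains and cargo adaptors, 16 of 19 were measured and 1 was lower at both doses. This was Trak2, which links mitochondria to kinesin; 1370176_at was lower by 0.51 ± 0.11 at 5 mg/kg and fell by 0.50 ± 0.11 at 20 mg/kg (adjusted p = 0.00529), while its other probe set gave -0.29 (adjusted p = 0.116).

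Of dynein and dynactin, the motor complex that runs the opposite way, 23 of 27 genes were measured, with 3 higher at 5 mg/kg, 4 higher at 20 mg/kg, and none lower at either dose. Pafah1b1, the dynein regulator also called Lis1, ran from 8.53 to 9.18 in vehicle and from 9.41 to 9.71 at 20 mg/kg, and rose by 0.70 ± 0.14 (adjusted p = 0.00236) at 1392890_at, with 0.29 (adjusted p = 0.112) at its other probe set. Dync1li1, a light intermediate chain of dynein, ran from 9.15 to 9.32 in vehicle and from 9.47 to 9.60 at 20 mg/kg, and rose by 0.32 ± 0.08 (adjusted p = 0.017). Dctn5, a dynactin subunit, rose by 0.30 ± 0.07 (adjusted p = 0.00758). The list's median at 20 mg/kg was 0.055, against -0.0074 for all genes.

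Of tubulins and microtubule-associated proteins, 21 of 25 were measured, with 1 lower at 5 mg/kg, 2 lower at 20 mg/kg, and none higher at either dose. Map7, a kinesin-1 recruiter, fell by 0.48 ± 0.13 at 20 mg/kg (adjusted p = 0.0218), and its other probe set gave -0.17 (adjusted p = 0.557). Mapt, which encodes tau, fell by 0.21 ± 0.06 at 20 mg/kg (adjusted p = 0.0275), and its other probe sets gave -0.10 and -0.09 (adjusted p = 0.677 and 0.681). Of synaptic vesicle precursor cargo, 11 of 12 were measured, with 1 higher at 5 mg/kg, and 2 higher and 1 lower at 20 mg/kg. Pclo, a scaffold of the active zone, rose by 0.73 ± 0.15 at 20 mg/kg (adjusted p = 0.00339), Syt1, the calcium sensor of release, rose by 1.58 ± 0.30 (adjusted p = 0.00171), and Sv2a, a vesicle membrane protein, fell by 0.33 ± 0.10 (adjusted p = 0.0477). The 3 higher doses gave 0 limma calls among these 5 lists at the brightest probe set, with 12, 3 and 7 of their 80 genes under an unadjusted p of 0.05. That is 15%, 3.75% and 8.75% of them, against 10%, 4.4% and 6.7% of all 10205 genes. With all kept probe sets of the list genes, 2 of 24 of light chains and adaptors and 1 of 36 of tubulins were called higher at 50 mg/kg. Of all tested probe sets 0.864% were called there.

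**Figure D5:**
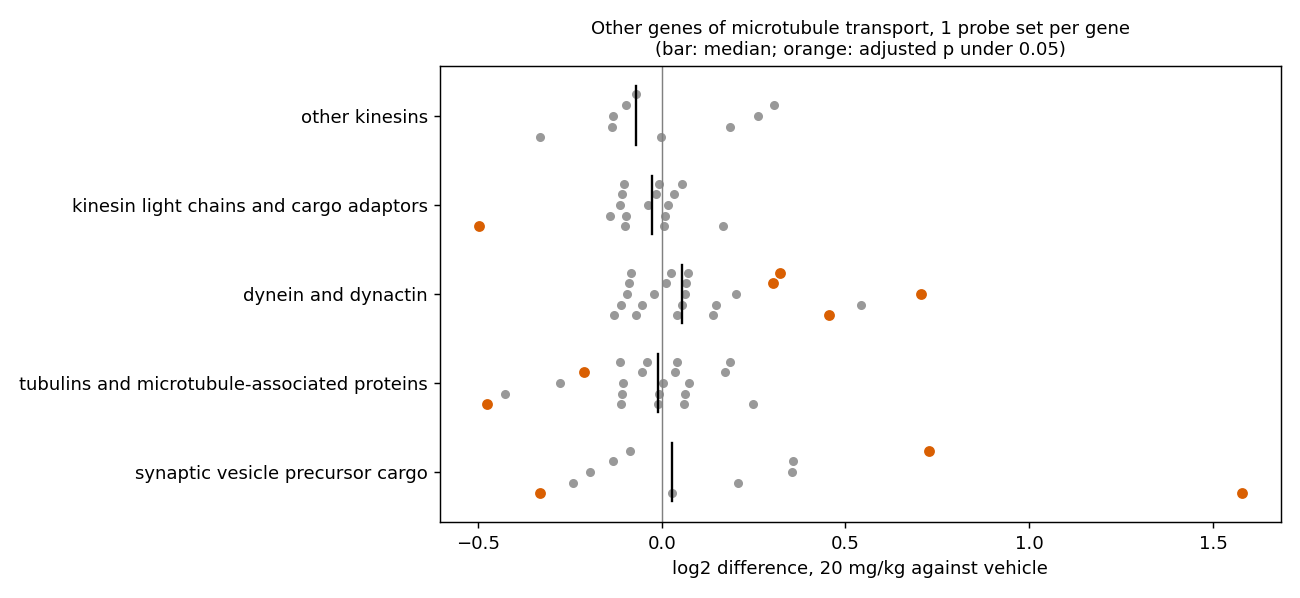
Log2 difference between 20 mg/kg and vehicle (horizontal axis) of the measured genes of 5 lists of microtubule transport and its cargo (rows), 1 point a gene at its brightest probe set; the bar is the list's median and orange marks an adjusted p under 0.05. The medians lie between -0.071 and 0.055, and the point farthest to the right is Syt1 at 1.58.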

How the data were processed

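RNA of 24 rat forebrain pieces was read on Affymetrix arrays, 1 array an animal, and the labels name a separate animal for each. The authors deposited 1 linear intensity per probe set, a signal of Affymetrix's GCOS software per the submitters' processing notes. For GCOS the version and scaling were not given in the sources used here. No scan dates or batches were used. Arrays' log2 medians spanned 0.73, so intensities were quantile normalized and taken as log2(intensity + 16). The 57 controls and the dimmest 40% of the rest were dropped. One limma fit (3.58.1, R 4.3.3) of 6 group means with an intensity trend gave differences, and pairs of probe sets were fitted without the trend. The fits were tested on simulated data. Gene names came from the platform annotation, where 20832 probe sets carry 1 symbol, 436 several and 9831 none; 20764 were updated by Entrez ID against RefSeq (GRCr8), which changed no member. Named were all member probe sets, up to 3 called genes with the smallest p in each list, and the 3 closest probe sets of other genes for each member, of which up to 3 are printed. Members, lists and tests were chosen with earlier results of these data known. Alternatives were the filter, scaling, pseudocount, moderation, array weights, groups in the fit, the Gapdh ratio as covariate and single arrays left out. The number of arrays, 4 a group, limits the precision; the median SE was 0.14.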

Additional observations from a re-analysis of the deposited data

Results flagged for a closer look

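In 4 of 96 groups of 4 arrays, 1 array lay far from the other 3 by Dixon's criterion at the 95% level, which chance alone gives in about 1 of 20 groups. Kif1a 1384133_at read 7.49 on 500 mg/kg replicate 2, above the others at 7.29 to 7.32. Kif3b 1374428_at read 8.50 on 500 mg/kg replicate 4, the array that goes against its tissue label, below the others at 8.70 to 8.72. Kif3b 1379963_at, below the filter, read 5.91 on vehicle replicate 2, above the others at 4.51 to 4.66. Kif5b 1372444_at read 10.31 on 20 mg/kg replicate 4, above the others at 9.83 to 9.87.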

How the results depend on the processing

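With the Gapdh ratio as covariate, with all 24 arrays and without 500 mg/kg replicate 4, 0 kinesin probe sets and 0 pairs were called in each comparison and in the F test. Of all probe sets and all pairs, too, 0 were called there, except for at most 1 of each at 200 or 500 mg/kg. The change of the Kif5a pair 1382787_at minus 1373187_at then turned, to -0.26 and -0.27 at 5 mg/kg against vehicle and to -0.17 and -0.17 between 5 and 500 mg/kg.

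On values as deposited the median of all probe sets itself shifted, by 0.37 at 20 mg/kg against vehicle and by 0.41 between 20 and 200 mg/kg, and the kinesin probe sets called were 1 at 5 mg/kg, 7 at 20 mg/kg, 8 between 20 and 200 mg/kg, 5 between 5 and 500 mg/kg and 7 in the F test. Of all 18625 probe sets, 1041, 6910, 8201, 2955 and 5619 were called in the same order. There Kif5c 1380172_at at 20 mg/kg gave -0.21 (limma, adjusted p = 0.321) and Kif1a 1384133_at gave -0.34 (adjusted p = 0.218), so both calls of a fall were lost there with the sign kept, and both held with each array centred on its median. Array weights gave 2 called probe sets at 50 mg/kg, 4 between 20 and 200 mg/kg and 2 between 5 and 500 mg/kg. A fit of the compared groups alone gave 2 between 20 and 200 mg/kg and 0 between 5 and 500 mg/kg, and a filter of 60% gave 2 between 5 and 500 mg/kg. Called pairs were 2 at 50 mg/kg under the filter of 60%, and 1 between 5 and 500 mg/kg without a filter, with median centring, as deposited, with pseudocount 64 and with the compared groups alone. From the array weights onward, the counts over all probe sets or all pairs are not given beside the kinesin counts. Nothing is therefore read from those kinesin counts. The cause of the changes was not tested.

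Leaving out 1 array at a time gave 2 to 3 called probe sets at 5 mg/kg, 2 to 5 at 20 mg/kg, 0 to 1 at 50 mg/kg, 0 to 3 between 20 and 200 mg/kg, 1 to 2 between 5 and 500 mg/kg and 2 to 4 in the F test, and 0 at 200 and 500 mg/kg. Called pairs were 2 to 3, 3 to 6, 1 to 2, 2, 1 to 2 and 2 to 4 in the same order, and 0 at 200 and 500 mg/kg. Over all probe sets the same omissions gave 585 to 1672, 981 to 2368, 18 to 456, 63 to 577, 333 to 813 and 715 to 1401 calls, and over all pairs 497 to 752, 656 to 913, 111 to 386, 125 to 380, 266 to 514 and 543 to 718. With all kept probe sets of the list genes in place of the brightest, 1 of 14 of the other kinesins was called higher at 5 and at 20 mg/kg. At 20 mg/kg the calls were then 4 higher and 2 lower of 24 for light chains and adaptors, 5 higher of 28 for dynein and dynactin, 1 higher and 2 lower of 36 for tubulins and 5 higher and 1 lower of 14 for vesicle cargo. Of all 18625 probe sets 5.25% were called higher and 3.23% lower at 20 mg/kg, and 3.79% higher at 5 mg/kg. No paired analysis was made because the labels name a different animal for each array, and the replicate numbers used here only name arrays. Dim probe sets have only 4 arrays a group behind them, and Kif1b could not be read at a probe set of its own.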
